A study of Mus musculus with 9 samples.

Results

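The genes described here are 7 of the 30789 symbols on the array, members of the growth hormone and insulin-like growth factor (IGF) axis of mouse liver: Ghr, Igf1, Igfals, Igfbp1, Igfbp2, Igfbp4 and Socs2. They were taken as every probe of the scanner table filed under one of these symbols, which gave 13 of the 45281 probes, 3 each for Ghr and Igf1, 2 each for Igfbp2 and Igfbp4, and 1 each for Igfals, Igfbp1 and Socs2. All 13 were detected on each of the 9 Illumina bead arrays and were among the 19425 probes tested. PV was the glutamine synthetase subcompartment, hepatocytes next to the central vein that were lifted by laser capture microdissection. NPV was captured tissue from zones 1+2 of the acinus, and SC was the whole section scraped off the slide, with 3 arrays for each group. The sources used here do not give strain, sex, age, feeding state or number of mice. Titles carry a number from 1 to 3 in each group but tie no array to an animal, so arrays may share one, and p-values then measure only the spread between these arrays. In the titles the number 3 follows the group letters, whereas 1 and 2 precede them, and the reason is not given.

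Growth hormone from the pituitary binds its receptor on hepatocytes and activates the kinase JAK2 and the transcription factor STAT5. The liver answers by making IGF1 and the acid-labile subunit, which travel in plasma in complexes with IGF-binding proteins, and by making SOCS proteins, which dampen the signal. Of the binding proteins, IGFBP1 is known for its repression by insulin and IGFBP2 for its rise in fasting.

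No member differed between regions past the threshold. By another rule, set after the values were seen and without a test, 2 members stood over 2-fold apart by label number in every region. Of tested probes 2.79% met this rule as Socs2 did, lower on number 3, and 0.139% as Igfbp1 did, higher on number 2. The rule and the test are unlike and their counts are not to be compared. Socs2 was far lower on the 3 arrays numbered 3, at 7.27 to 7.83, against 11.88 to 12.27 on the 6 arrays numbered 1 and 2 (log2 intensity). Igfbp1 was highest on the arrays numbered 2 in every region. The 3 probes of Igf1 lay lower in PV than in NPV on each of the 3 numbers, by 0.014 to 0.77 on the log2 scale, without passing the test. In each comparison 0 of 13 member probes passed an adjusted p of 0.05 by limma. Of all probes tested 0.0103% passed between PV and NPV, 0% between PV and SC and 0% between NPV and SC. An unadjusted p under 0.05 was reached by 0 of 13 in each, against 2.1%, 1.12% and 1.59% of tested probes in the same order. With the label number as a block, 0 of 13 passed the adjusted threshold, which 0.329%, 0.0824% and 0% of tested probes passed. There the unadjusted p was under 0.05 for 3, 0 and 0 members, against 9.15%, 6.19% and 6.74%.

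The arrays numbered 3 stood apart from the rest. Pearson correlations over the tested probes, which are no replicates of each other, were 0.939 to 0.955 for an array numbered 3 with any numbered 1 or 2. Among the arrays numbered 1 and 2 they were 0.980 to 0.991. The number alone took a median of 60.3% of each tested probe's sum of squares over the 9 arrays, and the region 10.3%. Glul, the gene of glutamine synthetase, checked the labels: it measured 13.73, 12.81 and 12.88 in PV, 11.09, 10.94 and 10.48 in NPV and 11.58, 11.70 and 11.44 in SC (log2 intensity, arrays 1, 2 and 3). The summed intensity of 13 pericentral hepatocyte markers was 149064 to 166715 in PV and 113659 to 118013 in NPV, and that of 13 periportal markers 155296 to 164178 in PV and 193945 to 223841 in NPV. Sums of 7 general hepatocyte markers overlapped, at 237625 to 253845 in PV, 250885 to 259346 in NPV and 239660 to 263463 in SC. By number, however, the sum was lower in PV each time. It was 237625, 248885 and 253845 in PV and 256638, 250885 and 259346 in NPV (arrays 1, 2 and 3). Of the 7 markers 0 had a higher mean level in PV than in NPV. The part of this in the member values was not tested. The levels are tissue averages, in which fewer cells of a type and less RNA per cell cannot be told apart.

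**Figure D1:**
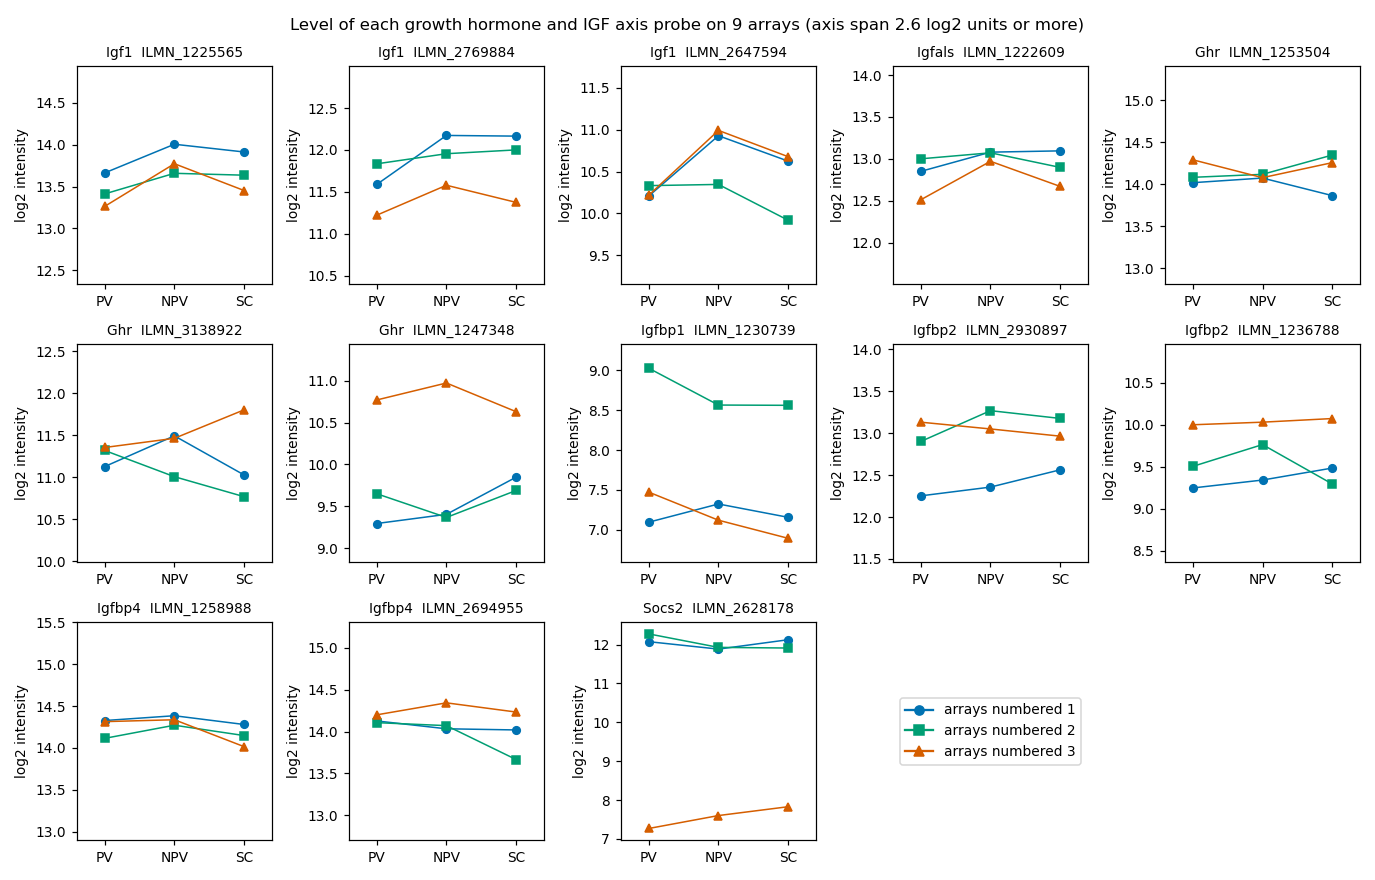
Level (log2 intensity) of each of the 13 member probes on the 9 arrays, by region on the horizontal axis, with a line and marker for each label number. Socs2 on the arrays numbered 3 lies at 7.27 to 7.83, below all other arrays, and Igfbp1 on the arrays numbered 2 lies at 8.56 to 9.03, above all others.

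Ghr encodes the growth hormone receptor. Its brightest probe, ILMN_1253504, gave 14.02, 14.08 and 14.29 in PV, 14.07, 14.12 and 14.08 in NPV and 13.86, 14.35 and 14.26 in SC (log2 intensity, arrays 1, 2 and 3). The 3 groups overlapped. PV differed from NPV by 0.04 (log2; SE 0.17; 95% interval -0.35 to 0.43; limma adjusted p = 1.00), from SC by -0.03, and NPV from SC by -0.07. The 95% intervals of this probe ran from -0.41 to 0.36 for PV minus SC and from -0.46 to 0.32 for NPV minus SC. The probe ILMN_3138922 ranged from 10.77 to 11.80 and differed between PV and NPV by -0.05 (SE 0.27). The remaining probe, ILMN_1247348, moved with the label number: 10.77 in PV, 10.97 in NPV and 10.63 in SC on the arrays numbered 3, against 9.30 to 9.85 on those numbered 1 and 2. The arrays numbered 3 were the highest of their region in all 3 regions, by at least 0.78, which fell short of a 2-fold gap. The brightest probe did not share this pattern, with a mean difference of number 3 from numbers 1 and 2 of 0.12 against 1.25 for ILMN_1247348. The probes of Ghr thus disagree on the label number, and over the 9 arrays, which share their numbers, these 2 correlated at a Pearson r of 0.33.

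Igf1 encodes insulin-like growth factor 1, the main growth factor that liver releases under growth hormone. The brightest Igf1 probe, ILMN_1225565, measured 13.66, 13.41 and 13.26 in PV, 14.00, 13.66 and 13.77 in NPV and 13.91, 13.63 and 13.45 in SC (log2 intensity, arrays 1, 2 and 3). Each PV array was the lowest of its number, although the groups overlapped. PV was 1.29-fold below NPV, a log2 difference of -0.37 (SE 0.19; 95% interval -0.79 to 0.06; limma adjusted p = 1.00). With the label number as a block the interval was -0.63 to -0.097 and the adjusted p = 0.37.

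The other Igf1 probes gave values of the same order. ILMN_2769884 differed between PV and NPV by -0.35 (SE 0.27), and by number by -0.58, -0.12 and -0.36. ILMN_2647594 differed by -0.50 (SE 0.25), and by number by -0.72, -0.014 and -0.77. Its levels were 10.21, 10.33 and 10.22 in PV and 10.93, 10.35 and 10.99 in NPV, so here the groups did not overlap, which 3.05% of tested probes showed in this direction and 2.73% in the other. Over the number-centred levels of the 9 arrays the 3 probes correlated at 0.72 to 0.86, and as they read the transcripts of a single gene they are not replicates of the condition. The sign of the difference does not rest on the arrays numbered 3. Without them the difference was -0.29, -0.35 and -0.37 for ILMN_1225565, ILMN_2769884 and ILMN_2647594. The last of these came almost wholly from number 1. With the block the unadjusted p by limma was then 0.10, 0.098 and 0.16, against 0.013, 0.029 and 0.023 with all 9 arrays. The size of the difference also moves with the scaling. Scaling each array to the median of all its probes, tested or not, gave -0.11, -0.023 and -0.15. The median difference of the tested probes was then 0.28, against -0.0045 with quantile normalization. Relative to that median the 3 values were -0.39, -0.30 and -0.43.

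Against SC, the Igf1 probes differed in PV by -0.22, -0.30 and -0.15, and in NPV by 0.14, 0.056 and 0.35 (log2; limma adjusted p = 1.00 in each case). The comparisons share arrays. From high to low the mean levels ran NPV, SC and PV for each probe, and neighbours in that order did not differ beyond their spread. The groups overlapped for 13 of 13 member probes in both comparisons with SC. Of tested probes 1.97% were separate and lower and 1.71% separate and higher between PV and SC, and 2.24% and 2.01% between NPV and SC. Markers of central vein endothelium ran in the opposite order on each number, highest in PV and lowest in NPV. The summed intensity of 6 of 7 listed genes was 2883, 1844 and 452 in PV (arrays 1, 2 and 3). It was 734, 867 and 179 in NPV and 957, 1290 and 342 in SC. The remaining gene, Wnt9b, did not pass the filter. The summed intensity of 14 stellate cell and fibroblast markers was 16350 to 24427 in PV and 15660 to 16890 in NPV. Their part in the Igf1 values was not tested.

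Igfals encodes the acid-labile subunit, which binds IGF1 and an IGF-binding protein into the large circulating complex. Its probe gave 12.85, 13.0001 and 12.51 in PV, 13.08, 13.07 and 12.97 in NPV and 13.10, 12.90 and 12.67 in SC (log2 intensity, arrays 1, 2 and 3). PV was lower than NPV on each number, by 0.23, 0.072 and 0.46, yet the groups overlapped. The difference was -0.25 (SE 0.18; 95% interval -0.67 to 0.16; limma adjusted p = 1.00), and relative to the median of the tested probes it was -0.22 under median scaling, where the value itself was 0.065. In all, 6 of 13 member probes were lower in PV than in NPV on all 3 numbers and 0 were higher. Of all tested probes 17.7% were lower and 15.2% higher. The 6 were the 3 of Igf1, that of Igfals, Igfbp2 ILMN_1236788 and Igfbp4 ILMN_1258988.

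**Figure D2:**
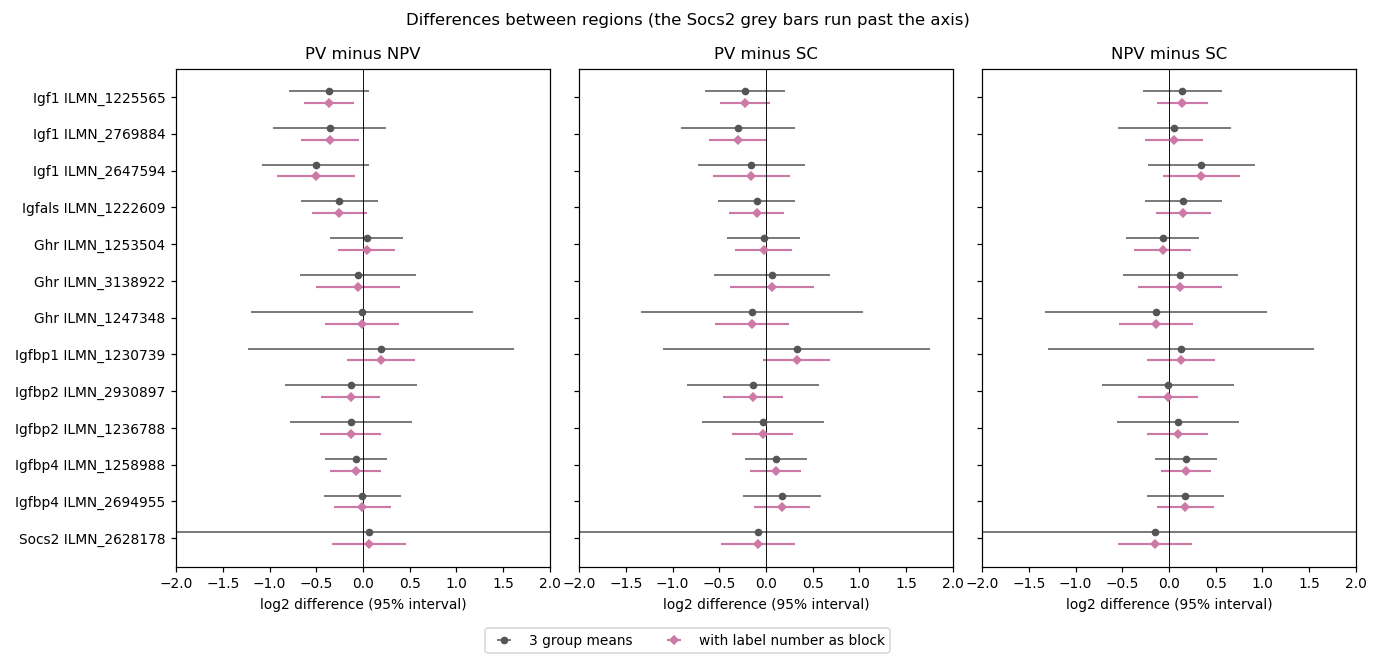
Log2 difference between regions for each member probe with its 95% interval from limma, from the model of 3 group means (grey circles) and with the label number as a block (pink diamonds). The 3 Igf1 probes lie at -0.37, -0.35 and -0.50 for PV minus NPV, and the grey interval of each member crosses 0 in every comparison.

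The letters upstream are shown for Igfals and Igfbp1, the only 2 members with a match in the search below. Growth hormone and insulin, through STAT5 and FOXO proteins, are known to act on these 2 genes. Sequences are those of RefSeq on GRCm38.p6, whose promoter table held 6 of the 7 members in 10 windows and lacked Socs2. The windows searched were the 250 bases before each listed start, on both strands, for TTCNNNGAA, the core of STAT5 sites, which reads the same on both strands, and for CAAAACA, part of the insulin response element. Capitals mark the matches. The first Igfals window lies at chr17:24877594-24877843 on the plus strand, with the match 236 bases before the start. A further match lies 58 bases before another listed start of Igfals, within chr17:24878163-24878191. The Igfbp1 window lies at chr11:7197537-7197786 on the plus strand, with its match 108 bases before the start.
Igfals, first start: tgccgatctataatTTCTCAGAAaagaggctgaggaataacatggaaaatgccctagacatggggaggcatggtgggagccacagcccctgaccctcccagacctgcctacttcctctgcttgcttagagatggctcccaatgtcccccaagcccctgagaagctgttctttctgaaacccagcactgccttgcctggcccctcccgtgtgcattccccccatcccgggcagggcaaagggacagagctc
Igfals, other start: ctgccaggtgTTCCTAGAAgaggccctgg
Igfbp1: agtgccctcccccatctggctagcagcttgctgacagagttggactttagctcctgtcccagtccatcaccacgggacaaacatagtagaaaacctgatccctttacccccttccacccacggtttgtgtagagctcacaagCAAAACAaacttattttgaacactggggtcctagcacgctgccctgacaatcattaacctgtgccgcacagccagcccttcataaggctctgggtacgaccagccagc
The STAT5 core was found in 2 of the 10 member windows, both of Igfals, and in 7.02% of all 32851 windows. The FOXO letters were found in 1 of the 10 and in 5.56% of all. The window of Igf1 held neither. These are matches of letters, not sites shown to be bound.

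Igfbp1 encodes a binding protein that insulin represses in liver. Its level was 7.10, 9.03 and 7.47 in PV, 7.32, 8.57 and 7.12 in NPV and 7.16, 8.56 and 6.89 in SC (log2 intensity, arrays 1, 2 and 3). The array numbered 2 was the highest in every region, by at least 1.24 over the next, and the 3 regions overlapped. On average over the regions the arrays numbered 2 lay 2.91-fold above those numbered 1 and 3. Being over 2-fold above both other numbers in all 3 regions was met by 0.139% of tested probes for number 2, and among the 13 member probes by Igfbp1 alone. The label number took 93.3% of the sum of squares of this probe and the region 3.21%. Between PV and NPV it differed by 0.20 (SE 0.63; 95% interval -1.23 to 1.62; limma adjusted p = 1.00), and between PV and SC by 0.33. By number PV differed from NPV by -0.23, 0.46 and 0.35, so the sign was not shared. With the number as a block the interval narrowed to -0.17 to 0.56 for PV minus NPV, with an adjusted p = 0.77.

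Igfbp2 encodes a binding protein abundant in fasted and fetal liver. Its brighter probe, ILMN_2930897, gave 12.25, 12.90 and 13.13 in PV, 12.36, 13.27 and 13.05 in NPV and 12.56, 13.18 and 12.96 in SC (log2 intensity, arrays 1, 2 and 3). The array numbered 1 was the lowest in each region, with a difference of -0.40 or beyond from the next, and the regions overlapped. On the other probe, ILMN_1236788, the arrays numbered 3 were the highest in each region, at 10.0013 in PV, 10.03 in NPV and 10.08 in SC, against 9.25 to 9.76 on the other 6. The 2 probes thus agree that numbers differ more than regions, with 87.5% and 84.1% of the sum of squares by number, but not on which number stands out. Between PV and NPV both probes differed by -0.13 (SE 0.31 and 0.29; limma adjusted p = 1.00).

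Igfbp4 encodes a binding protein that restrains IGF action and is cleaved by the protease PAPP-A. Over the 9 arrays ILMN_1258988 ranged from 14.02 to 14.38 and ILMN_2694955 from 13.67 to 14.34 (log2 intensity). ILMN_1258988 measured 14.33, 14.11 and 14.31 in PV, 14.38, 14.27 and 14.34 in NPV and 14.28, 14.15 and 14.02 in SC. These groups overlapped. The difference of PV from NPV was -0.079 (SE 0.15; 95% interval -0.41 to 0.25) and that of NPV from SC 0.18 (SE 0.15; limma adjusted p = 1.00 for both). NPV was above SC on all 3 numbers for both Igfbp4 probes. In that comparison 5 of 13 member probes were higher on all 3 numbers and 0 lower, against 13.3% and 14.4% of tested probes. Between PV and SC 2 were lower and 0 higher on all 3, against 12.8% and 11.2%.

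Socs2 encodes suppressor of cytokine signalling 2, a protein induced by growth hormone that restrains its receptor. Its probe measured 12.07, 12.27 and 7.27 in PV, 11.88, 11.93 and 7.60 in NPV and 12.12, 11.91 and 7.83 in SC (log2 intensity, arrays 1, 2 and 3). In every region the array numbered 3 was the lowest, with a difference of -4.08 or beyond from the next, while arrays 1 and 2 lay close together. The regions overlapped. The gap stands in the intensities as deposited, before any scaling: 296 in PV, 245 in NPV and 307 in SC on the arrays numbered 3, against 2584 to 7599 on the other 6. In the authors' scaled table it was 200 to 268 against 3570 to 4660. Averaged over the regions, number 3 was 22.1-fold below numbers 1 and 2, a difference of -4.47 that placed Socs2 21st from the lowest among 19425 probes. Being over 2-fold below both other numbers in every region was met by 2.79% of tested probes for number 3 and by 1 of the 13 member probes. No member met this for number 1 (0.0257% of tested probes lower, 0.0669% higher) or was lower by it on number 2 (0.0515%). Because no label says what the numbers stand for, this is a description with no test.

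Between regions Socs2 differed little once the number was held fixed. PV differed from NPV by 0.19, 0.35 and -0.33 by number, and from SC by -0.05, 0.36 and -0.56. The mean difference of PV from NPV was 0.068, with an SE of 1.76 and a 95% interval of -3.92 to 4.06 in the model of group means, and with an SE of 0.17 and an interval of -0.33 to 0.46 with the number as a block (limma adjusted p = 1.00 and 0.95). Without the arrays numbered 3 it was 0.27 (SE 0.20). The label number took 99.3% of the sum of squares of Socs2, a share reached by 0.484% of tested probes, and the region 0.085%. A further probe, filed as Cish2, an older name of Socs2, fell outside the choice by symbol and was detected on 0 of 9 arrays.

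**Figure D3:**
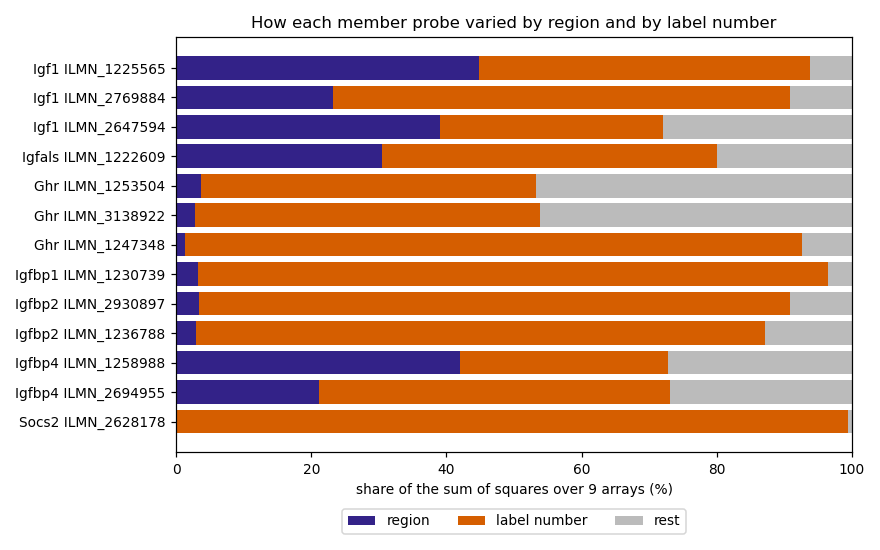
Share (%) of each member probe's sum of squares over the 9 arrays that went with region, with label number and with neither. For Socs2 the label number takes 99.3%, and for Igfbp1 93.3%, while the region takes its largest shares for Igf1 ILMN_1225565 (44.8%) and Igfbp4 ILMN_1258988 (42.0%).

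Other genes of growth hormone signalling were read from a list of 21, of which 17 were tested. None of the 17 passed in any of the 3 comparisons of regions (limma), and 0 of 17 had an unadjusted p under 0.05. The medians were -0.045, -0.020 and 0.021 beside -0.0045, -0.0074 and -0.0024 over all tested probes. Stat3, a transcription factor of cytokine signalling, had the smallest p between PV and NPV (log2 -0.31, SE 0.16, limma adjusted p = 1.00). With the number as a block 0 of 17 passed, and 2, 0 and 0 had an unadjusted p under 0.05, against 9.15%, 6.19% and 6.74%. By label number, 2 of the 17 were over 2-fold lower on number 3 in all regions, against 2.79% of tested probes. These were Cish and Socs3, which belong to the same family of feedback inhibitors as Socs2. They and the genes named by number in the next paragraphs were singled out after their values were seen.

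Cish, also induced by growth hormone through STAT5, gave 6.03 in PV, 8.47 in NPV and 8.21 in SC on the arrays numbered 3 (log2 intensity). On the arrays numbered 1 and 2 it gave 12.06 and 11.58 in PV, 12.35 and 11.72 in NPV and 12.31 and 11.76 in SC. The low arrays for Cish are thus those for Socs2, with mean differences from numbers 1 and 2 of -4.39 for Cish and -4.47 for Socs2. Socs3, induced by many cytokines, gave 7.14 in PV, 8.92 in NPV and 8.90 in SC on number 3, against 10.17 to 10.56 on the other 6 arrays. Bcl6, a repressor that growth hormone holds down in liver, was highest on number 3 in every region, at 12.41 in PV, 11.94 in NPV and 12.13 in SC. On the arrays numbered 2 it was lowest, at 10.60, 10.70 and 10.51, and on those numbered 1 it was 11.78, 11.59 and 11.54. The receptor's kinase Jak2 showed no such gap, with 7.18 to 7.23 on number 3 and 6.75 to 7.70 on the others. Stat5a was higher on number 3, at 7.21, 7.57 and 7.55, against 5.61 to 6.70 on the other 6. Jak2 and Stat5a each had 2 tested probes, of which only the brighter was read. Stat5b, also on the list, was not among the genes tested.

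**Figure D4:**
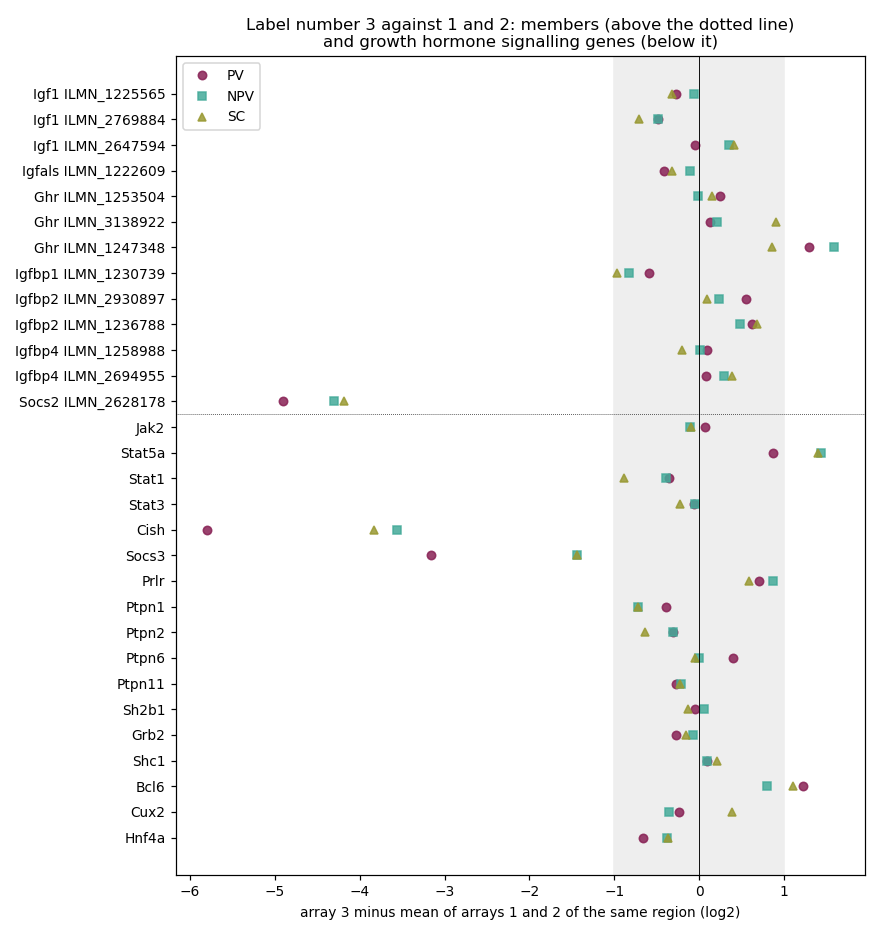
Array 3 minus the mean of arrays 1 and 2 of the same region (log2), with a marker for each region, for the 13 member probes above the dotted line and 17 growth hormone signalling genes below it. Socs2 lies at -4.91, -4.30 and -4.19 and Cish at -5.79, -3.56 and -3.83 in PV, NPV and SC, and the grey band marks differences under 2-fold.

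Markers of some other cell types also differed by number. The summed intensity of 10 of 11 listed Kupffer cell and macrophage markers was 2328 to 4061 on number 3, against 5230 to 7458 on the others, that of 9 of 10 sinusoidal and general endothelium markers 7209 to 9092 against 9215 to 11805, and that of 6 of 7 central vein endothelium markers 179 to 452 against 734 to 2883. For 4 of 5 red blood cell markers it was 48767 to 65185 against 66929 to 96771, and for 4 of 7 lymphocyte markers 70.1 to 91.4 against 100.3 to 149. These 5 sums did not overlap between number 3 and the others. Others did: 14 stellate cell and fibroblast markers summed to 16350 to 17378 on number 3 and 15660 to 24427 on the others, and 5 of 8 cholangiocyte markers to 978 to 2228 against 2000 to 3266. How often sums of other probes separate by number was not computed, so the 5 have no baseline. The sinusoidal sums nearly touched (9092 against 9215). The lymphocyte sums were the smallest of all types and close to the detection limit. The sum of 3 of 5 smooth muscle markers was highest on number 1, at 1346 to 11441, against 196 to 662 on numbers 2 and 3. The 7 hepatocyte markers summed to 253845 to 263463 on number 3 and 237625 to 256638 on the others. The part of these differences in the Socs2, Cish and Socs3 values was not tested.

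Genes that the growth hormone rhythm is known to set differently in male and female mouse liver were read as 2 lists. Of 18 male-biased genes tested, limma passed 0 in each comparison and gave 0 an unadjusted p under 0.05. With the number as a block 0 passed, and 4, 2 and 0 had an unadjusted p under 0.05. Of tested probes 9.15%, 6.19% and 6.74% reached this between PV and NPV, PV and SC, and NPV and SC. By number, Serpina1e, a protease inhibitor, and Cyp4a12b, a fatty acid hydroxylase, were over 2-fold lower on number 3 in every region, against 2.79% of tested probes. The list did not move one way. On number 3, 9 of the 18 were lower and 5 higher than the mean of numbers 1 and 2 in all 3 regions. The median difference was -0.18, beside 0.021 over all tested probes. Cyp4a12a, closely related to Cyp4a12b, was higher by 0.66 in PV, 0.66 in NPV and 0.35 in SC, Cyp2u1 by 1.15 on average and Susd4 by 0.97. Serpina1e gave 10.50 in PV, 10.64 in NPV and 10.12 in SC on number 3, against 15.91 or above on the others, near the highest level of any probe (16.03). Both Serpina1e and Cyp4a12b belong to families of near-identical genes whose transcripts a probe may not separate. Of 21 female-biased genes listed, 20 were on the array and 8 passed the detection filter. Detection on the 3 arrays numbered 3 alone was enough to pass, so the filter can favour genes high there. Among the 8, Cyp2b10 and Cyp2a4, both cytochrome P450 genes, were over 2-fold higher on number 3 in every region, against 1.95% of tested probes. Cyp2a4 gave 8.47 in PV, 9.98 in NPV and 9.38 in SC on number 3, against 5.35 to 6.43 on the others. In this list 5 of 8 were higher and 1 lower on number 3 in all 3 regions. The lower one was Cyp4a14, a further cytochrome P450 gene. It differed from the mean of numbers 1 and 2 by -2.94 in PV, by -1.29 in NPV and by -1.90 in SC. The share of all tested probes with the same sign in all 3 regions was not computed. The sign counts of both lists thus have no baseline and cannot be read as traits of these genes.

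With the number as a block, the unadjusted p by limma was under 0.05 for 4, 3 and 1 of the 8 female-biased genes tested. Of tested probes 9.15%, 6.19% and 6.74% reached this between PV and NPV, PV and SC, and NPV and SC. In the female-biased list 1 of 8 genes passed the adjusted threshold between PV and NPV with the block. Without the block 0 passed, and the same gene alone had an unadjusted p under 0.05. This was Gna14, a G protein subunit, with 9.73, 9.40 and 10.15 in PV and 7.48, 7.34 and 8.84 in NPV (arrays 1, 2 and 3). It was higher in PV on all 3 numbers, by 1.87 on average (SE 0.54; limma adjusted p = 1.00, and 0.0089 with the block, where 0.329% of tested probes passed).

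The rest of the IGF system was read from a list of 21 genes, of which 16 were tested and 0 passed in any comparison by limma, with 1, 0 and 0 at an unadjusted p under 0.05. Igfbp3, the main carrier of IGF1 in plasma and made in liver by cells other than hepatocytes, had the smallest p in all 3. It gave 9.85, 9.60 and 9.53 in PV, 8.70, 8.76 and 9.18 in NPV and 9.15, 9.16 and 9.51 in SC (log2 intensity, arrays 1, 2 and 3). PV and NPV did not overlap, PV being the higher, which 2.73% of tested probes showed. The difference was 0.78 (SE 0.19; unadjusted p = 0.0031; limma adjusted p = 1.00, and 0.15 with the block). Igfbp3 had 2 tested probes, of which only the brighter was read here. NPV was lower than SC by 0.44, 0.40 and 0.33 by number. The list's medians were -0.0093 for PV against NPV, 0.024 for PV against SC and 0.071 for NPV against SC. With the block 0 of 16 passed, and 1, 1 and 2 had an unadjusted p under 0.05, against 9.15%, 6.19% and 6.74% of tested probes.

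Likeness to each member's brightest probe was measured as the Pearson correlation over 9 arrays of levels centred within each label number. This takes out differences between numbers and leaves those between regions together with the scatter of single arrays. For these probes the region took more of the sum of squares than that scatter for Igf1, Igfals and Igfbp4. It took less for Ghr (3.74% against 46.7%), Igfbp1, Igfbp2 and Socs2. The correlations share their arrays and are high by choice among 19425 probes. For Igf1 the closest genes were Gsta1 (r = 0.99), Slco2a1 (0.98) and Hsd17b6 (0.98). Hsd17b6, an enzyme of steroid metabolism, gave 11.87, 12.45 and 11.57 in PV, against 12.53, 12.89 and 12.59 in NPV, so that it too was lower in PV on each number. For Igfals they were Spg21 (0.99), Cbs (0.98) and Sult5a1 (0.98), and for Ghr Rnf20, Emc2 and Cd53 (0.98 each). For Igfbp1 they were Lysmd2 (0.98), C6 (0.97) and Usp25 (0.97), for Igfbp2 Smg6 (0.98), Slc26a1 (0.98) and Zfp943 (0.97), for Igfbp4 Cep68 (0.94), H2-Q7 (0.93) and Eif6 (0.93), and for Socs2 Usp47 (0.99), Cdca7 (0.97) and Sh3pxd2a (0.96). With the numbers not centred, Cish matched Socs2 by array in the values given above, whereas Usp47 correlated with Socs2 at -0.75.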

How the data were processed

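The deposited scanner table gave an intensity with its detection p-value per probe on every array, per the file headers. The submitters' processing notes name BeadStudio 3, and the sources used here name no genome build. The deposited intensities were not normalized between arrays (medians 71.7 to 100.2). The authors' other table, of scaled intensities whose making the sources used here do not state, served as an alternative. Intensities were corrected and quantile normalized with limma 3.58.1 in R 4.3.3 (neqc, offset 16, with negative controls that limma infers from detection). Probes were kept where detection p was below 0.05 for 3 or more of the 9 arrays. Per array 16819 to 18721 probes were detected, and the number of arrays limits the precision. A limma model of 3 group means (6 residual degrees of freedom) gave 3 comparisons, 2-sided, with Benjamini-Hochberg adjustment over 19425 probes. It was tested on simulated data whose arrays varied independently, with no effect of label number. That test therefore does not cover the deviations that same-numbered arrays share. A fold is 2 to the power of the log2 difference, and the offset draws dim probes towards 1.

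Label numbers were taken to pair the arrays: same-numbered arrays of different groups deviated together from their group means (r = 0.57 to 0.87, every pair over 0.1). Arrays numbered 1 also deviated together with arrays numbered 2 of other groups, though less (r = 0.33 to 0.40). Passing 0.1 therefore does not by itself show that same-numbered arrays are pairs, and the blocked values rest on taking them so. Genes of the lists were represented by their brightest probe and named through RefSeq (29370 probes by accession, 3678 by symbol, 3273 by unique synonym). Named genes were the member probes, up to 3 genes per list and comparison with the smallest p, and the 3 closest to each member. The members and lists were chosen with earlier results of these data known, and the rule on label numbers (over 2-fold from both others in each region) after the values were seen.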

Additional observations from a re-analysis of the deposited data

How the results depend on the processing

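The member results of no comparison passed the threshold under any of the alternatives (723 values, lowest adjusted p = 0.37). Of these values 83 had the other sign, all for results whose reported difference was at most 0.33 in size on the log2 scale. The 3 Igf1 probes were lower in PV than in NPV under every alternative run. Of the 83, 54 came from leaving out an array, and beyond the common shift under median scaling the cause was not tested. With median scaling the sign turned in PV minus NPV for Igfals (0.065), Ghr ILMN_3138922 (0.31), Ghr ILMN_1247348 (0.36), Igfbp2 ILMN_2930897 (0.16), Igfbp2 ILMN_1236788 (0.23), Igfbp4 ILMN_1258988 (0.14) and Igfbp4 ILMN_2694955 (0.23). With median scaling the sign turned in PV minus SC for Igf1 ILMN_2647594 (0.035), Igfals (0.059), Ghr ILMN_1253504 (0.086), Ghr ILMN_1247348 (0.055), Igfbp2 ILMN_2930897 (0.021), Igfbp2 ILMN_1236788 (0.16) and Socs2 (0.096). With median scaling the sign turned in NPV minus SC for Igf1 ILMN_2769884 (-0.093), Igfals (-0.0057), Ghr ILMN_3138922 (-0.056), Igfbp1 (-0.023) and Igfbp2 ILMN_1236788 (-0.068). Median scaling moved the median difference of the tested probes to 0.28, 0.15 and -0.13 in the 3 comparisons. Of the 19 differences whose sign turned with it, 16 kept their sign relative to that median, as Igfals between PV and NPV (-0.22). The other 3 turned there too: Ghr ILMN_3138922 (0.025) and Ghr ILMN_1247348 (0.081) between PV and NPV, and Igfbp2 ILMN_1236788 (0.013) between PV and SC. Without the arrays numbered 3, with or without the replicate block, it turned for Ghr ILMN_1253504 (PV minus NPV, -0.045), Ghr ILMN_1247348 (PV minus NPV, 0.087), Igfbp4 ILMN_2694955 (PV minus NPV, 0.065), Socs2 (PV minus SC, 0.16) and Igf1 ILMN_2769884 (NPV minus SC, -0.019). Leaving out each array in turn gave ranges across 0 in PV minus NPV of -0.21 to 0.032 for Ghr ILMN_3138922, -0.44 to 0.52 for Ghr ILMN_1247348, -0.40 to 0.12 for Igfbp2 ILMN_2930897, -0.34 to 0.040 for Igfbp2 ILMN_1236788, -0.063 to 0.092 for Igfbp4 ILMN_2694955, -1.37 to 1.70 for Socs2, -0.39 to 0.64 for Igfbp1 and -0.040 to 0.097 for Ghr ILMN_1253504. Leaving out each array in turn gave ranges across 0 in PV minus SC of -0.17 to 0.070 for Ghr ILMN_1253504, -0.58 to 0.15 for Ghr ILMN_1247348, -0.32 to 0.12 for Igfbp2 ILMN_2930897, -0.24 to 0.19 for Igfbp2 ILMN_1236788, -0.25 to 0.84 for Igfbp1, -0.21 to 0.037 for Igfals, -1.48 to 1.55 for Socs2 and -0.15 to 0.37 for Ghr ILMN_3138922. Leaving out each array in turn gave ranges across 0 in NPV minus SC of -0.18 to 0.22 for Igf1 ILMN_2769884, -0.67 to 0.15 for Ghr ILMN_1247348, -0.20 to 0.26 for Igfbp2 ILMN_2930897, -0.32 to 0.65 for Igfbp1, -0.067 to 0.32 for Igfbp2 ILMN_1236788, -1.55 to 1.28 for Socs2, -0.21 to 0.029 for Ghr ILMN_1253504 and -0.094 to 0.42 for Ghr ILMN_3138922.

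Counts over all probes moved more. Between PV and NPV 2 probes passed, against 11 with median scaling, 7 in the authors' table, 0 with only the 2 groups in the model, 30 without the arrays numbered 3 and 50 without them with the replicate block. Leaving out each array in turn gave 0 to 6, with 0 without PV 1, PV 2, NPV 1, NPV 3 or any SC array, 1 without NPV 2 and 6 without PV 3. With the replicate block 64 probes passed between PV and NPV and 16 between PV and SC, against 0, and in these fits 0 member probes passed (3 at an unadjusted p under 0.05, those of Igf1 between PV and NPV). The pairing by number changed no member call. Between PV and SC and between NPV and SC 0 probes passed by limma, with 218 and 309 at an unadjusted p under 0.05.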
